A study of Homo sapiens with 4 samples.

Results

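The genes described here encode secreted WNT ligands and secreted WNT inhibitors, with *AXIN2* as a readout of the pathway. The set was defined by symbol as 10 genes, of which 6 are ligands (*WNT4*, *WNT5A*, *WNT5B*, *WNT7A*, *WNT7B*, *WNT10A*), 3 are inhibitors (*SFRP1*, *DKK1*, *DKK3*) and 1 is the target *AXIN2*. Of these, 7 had a row in the deposited list of 16811 genes, namely 4 ligands and all 3 inhibitors. *WNT5B*, *WNT7A* and *AXIN2* had no row and were not analysed here, so the target named for the set gave no value.

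MCF12A, an epithelial line from human breast that does not form tumours, was profiled by RNA-seq of poly(A)-selected RNA in 2 edited and 2 wild-type (WT) biological replicates, with single-end reads of 75 bases. The edited cells, labelled *C1orf132* KO, had the p2 promoter of *C1orf132* removed with CRISPR/Cas9. This is the host gene of miR-29b2 and miR-29c. The paper describes p2 as a distal promoter of the longer transcripts, apart from the promoter of the miR-29 precursor. It reports miR-29c-3p as reduced in edited cells, not as lost. The edited cells were expanded as colonies from sorted single cells. The methods do not say which colony or how many were sequenced. A property of 1 clone and an effect of the deletion therefore cannot be told apart. Both groups were grown in the same medium, with horse serum, EGF, hydrocortisone, cholera toxin and insulin. The edited gene was not analysed here, and libraries were grouped by their labels alone.

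WNT proteins are lipid-modified secreted ligands that bind Frizzled receptors. In the canonical branch, Frizzled with the co-receptors LRP5 and LRP6 stabilizes β-catenin, which acts with TCF/LEF factors on target genes such as *AXIN2*. Secreted frizzled-related proteins bind the ligands, and DKK1 binds LRP5 and LRP6 and blocks the canonical branch. In the mammary gland WNT4 acts downstream of progesterone in ductal side branching, and WNT5A is best known for signalling without β-catenin.

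Because the edited locus is the host of miR-29, the mature sequences are shown first, 5′ to 3′, with the seed (bases 2 to 8) in capitals. Both share the seed, and they were taken from RefSeq on GRCh38.p14, minus strand of chromosome 1, at chr1:207801865-207801886 and chr1:207802450-207802472.
hsa-miR-29c-3p: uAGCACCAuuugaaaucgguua
hsa-miR-29b-3p: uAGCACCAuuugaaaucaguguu

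The seed match TGGTGCT was looked for in the 3 prime UTR of the canonical GENCODE transcript of each of the 7 genes. *WNT7B* held 2 matches and *DKK3* held 1. *WNT4*, *WNT5A*, *WNT10A*, *SFRP1* and *DKK1* held 0 in this window. A match was found in 16.3% of the 11791 protein-coding transcripts searched, and it describes letters, not binding. The matches are shown in capitals within 30 bases of transcript, since the edited locus is the host of these miRNAs. In *WNT7B* (ENST00000339464) they start at bases 1536 and 1718 of the transcript and in *DKK3* (ENST00000683431) at base 1288.
WNT7B first match: cttccctgcctTGGTGCTgccagcagcaga
WNT7B second match: gccaggggtctTGGTGCTccccgacggggc
DKK3 match: gcttcacagtcTGGTGCTtgggagagtcag

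The promoters of the ligand and the inhibitor with the largest log2 fold changes, *WNT4* and *DKK1*, are shown for the 250 bases before the RefSeq start along the gene's strand. *WNT4* lies on the minus strand at chr1:22143098-22143347 and *DKK1* on the plus strand at chr10:52314031-52314280 (GRCh38.p14). Capitals mark matches on either strand to a TCF/LEF core (CTTTGA, or TCAAAG on the other strand), a TATA box (TATAAA) or an E-box (CACCTG).
WNT4 promoter: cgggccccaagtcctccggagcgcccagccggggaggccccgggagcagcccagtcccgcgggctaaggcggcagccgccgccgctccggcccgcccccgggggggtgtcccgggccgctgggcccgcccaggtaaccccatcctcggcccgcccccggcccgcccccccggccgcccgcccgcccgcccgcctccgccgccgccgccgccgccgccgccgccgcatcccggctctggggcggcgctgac
DKK1 promoter: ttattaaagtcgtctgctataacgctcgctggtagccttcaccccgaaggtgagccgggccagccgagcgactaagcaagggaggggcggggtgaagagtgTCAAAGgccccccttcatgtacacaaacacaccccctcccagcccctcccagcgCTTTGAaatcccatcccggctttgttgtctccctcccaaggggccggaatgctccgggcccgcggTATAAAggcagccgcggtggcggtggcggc

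The *DKK1* promoter held 2 TCF/LEF cores, which end 90 and 144 bases before the start, and a TATA box 30 to 25 bases before it. Among 35116 promoters of this length, 11.2% held the TCF/LEF core, 10.7% the TATA letters and 17.5% the E-box. The *WNT4* promoter held none of the 3 and had a GC content of 86.8% with 40 CpG dinucleotides, against a median of 58.0% and 11 over all promoters. *DKK1* had 62.8% and 18. Promoters of *WNT5A* and *WNT10A* were searched as well, and 1 of the 2 *WNT5A* starts held an E-box. *WNT7B*, *SFRP1* and *DKK3* were not searched.

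Each library has 1 normalized value per gene. How the values were scaled for transcript length and between libraries is not given in the sources used here, so levels set side by side between genes, and shares of a sum over genes, assume a scaling per length. Library totals ranged from 1444640 to 1655440. Low values of genes with a single transcript, multiplied by transcript length, lay near multiples of a step, which gave an estimate of depth. The step, which is the value that 1 read gives a 1 kb transcript, was 0.111 and 0.103 for the edited libraries and 0.123 and 0.112 for the WT libraries. From 64.4% to 73.3% of the 42 to 59 low values per library were within 0.2 of a whole number of reads. Evenly spread values would give 40.0%, and choosing the best step raises the share. A search over a wider range, chosen after seeing the data, gave the same step in 3 libraries and 0.0585 in edited replicate 1, with which its read numbers would be 1.90 times as large. The read numbers below are therefore approximate. Groups were compared with limma on log2(value + 1) over the 16811 genes. An adjusted p under 0.05 was called, and the added 1 shrinks the fold changes of low genes. With 2 libraries per group, the smallest two-sided p of an exact permutation test is 0.333.

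Of the 7 genes, 3 (the inhibitors) had a mean value of at least 10 and the 4 ligands had lower means. At these levels, 3 of the 7 differed between edited and WT cells at an adjusted p under 0.05. *SFRP1* rose, and *WNT4* and *DKK3* fell. Over the full set of genes, 4.73% were called, 1.33% higher and 3.40% lower in edited cells. All 7 had an unadjusted p under 0.05, which 29.2% of genes had. The genes were chosen with earlier results of these data known, so shares of the set beside shares of all genes are no test of it. The values of the 2 groups did not overlap for any of the 7 genes, as for 61.6% of all genes. The median log2 fold change of the 7 genes was -1.05, the value of *WNT7B*, against 0.01 over all genes. How genes were chosen for the deposited list is not given in the sources used here. *WNT7B* and *WNT10A*, with edited means of 0.344 and 0.103, may have a row only through their WT values. Such genes could only appear as lower, so the median does not describe a shift of the set.

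**Figure D1:**
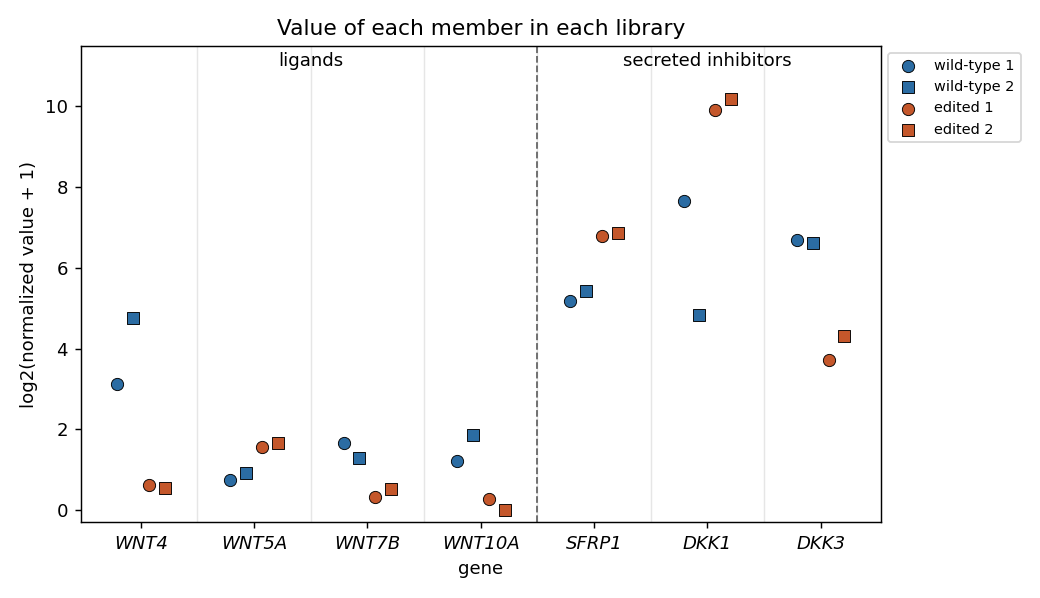
Log2(normalized value + 1) of each gene in each library, with circles for replicate 1, squares for replicate 2, blue for WT and orange for edited cells. In each library the 4 ligands lie below the 3 inhibitors, and the 2 WT points are far apart for *WNT4* (7.70 and 26.3) and *DKK1* (202 and 27.7).

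*WNT4* (chromosome 1, 22117313 to 22143097 on GRCh38, as for the positions of the other genes) was the most abundant of the 4 ligands in WT cells. Edited replicates 1 and 2 had values of 0.532 and 0.475, from about 19 and 18 reads, and WT replicates 1 and 2 had 7.70 and 26.3, from about 249 and 937 reads. Both edited libraries lay far below both WT libraries, while the WT libraries differed 3.42-fold from each other. The mean was 33.8-fold lower in edited cells, 15.3-fold without WT replicate 2 and 52.3-fold without WT replicate 1. The log2 fold change was -3.36 (standard error, SE, 0.55, 95% confidence interval -4.76 to -1.96, adjusted p = 0.0429 from limma). The call was lost when any 1 library was left out (adjusted p = 0.0941 to 0.182) and with a pseudocount of 5 (adjusted p = 0.0688). Over all its alternatives the adjusted p ranged from 0.0381 to 0.182.

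*WNT5A* (chromosome 3, 55465715 to 55505263) was the one ligand of the 4 with higher values in edited cells. It was 1.97 and 2.19 in edited replicates 1 and 2, from about 104 and 125 reads, and 0.674 and 0.876 in WT replicates 1 and 2, from about 32 and 46 reads. Replicates lay close together in both groups, 1.11-fold and 1.30-fold apart. The ratio of means was 2.68. The log2 fold change of 0.80 (SE 0.25, 95% confidence interval 0.16 to 1.43) did not pass the threshold (adjusted p = 0.115 from limma). How the authors' counting divided reads between close relatives such as *WNT5A* and *WNT5B* is not given in the sources used here.

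*WNT7B* (chromosome 22, 45920366 to 45977162), a ligand that acts mainly through β-catenin, had low values in both groups. They were 0.246 and 0.442 in edited and 2.16 and 1.45 in WT replicates 1 and 2, from about 9, 17, 70 and 51 reads. The mean was 5.25-fold lower in edited cells, and the log2 fold change of -1.05 (SE 0.28, 95% confidence interval -1.77 to -0.34) did not pass the threshold (adjusted p = 0.0883 from limma).

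*WNT10A* (chromosome 2, 218874116 to 218893928), a ligand of tooth, hair and skin development, was listed at 0.207 and 0 in edited and at 1.31 and 2.61 in WT replicates 1 and 2. These correspond to about 4 and 0 reads in edited cells and about 22 and 48 in WT cells. No ratio is given with so few reads. On the log2 scale edited cells were at -1.39 relative to WT cells (SE 0.33, limma adjusted p = 0.0739).

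Shares were taken over all 7 WNT ligands with a row, which adds *WNT9A*, *WNT10B* and *WNT11* to the 4 of the set. They summed to 6.56 and 7.98 in edited cells and to 19.3 and 37.4 in WT cells, replicates 1 and 2 in turn. *WNT4* made up 40.0% and 70.4% of this sum in WT cells, against 8.11% and 5.95% in edited cells. *WNT5A* made up 3.50% and 2.34% in WT cells and 30.0% and 27.4% in edited cells. The highest value belonged to *WNT4* in both WT libraries and to *WNT5A* in both edited libraries, where the next ones were close, *WNT10B* at 24.6% in edited replicate 1 and *WNT9A* at 24.1% in edited replicate 2. These shares were not tested.

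**Figure D2:**
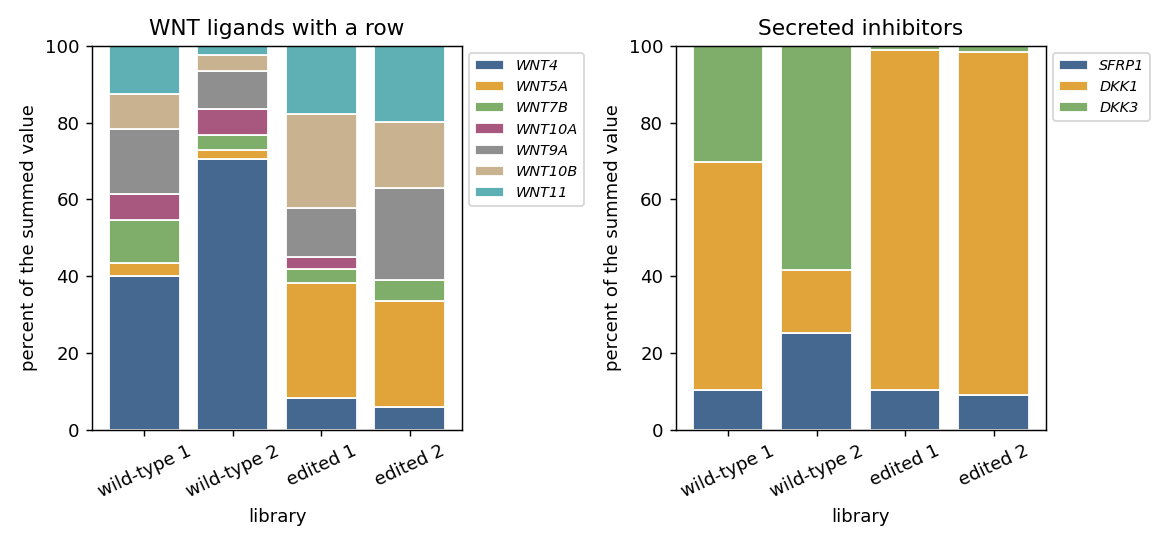
Share of each gene, in percent of the summed normalized value, within the 7 WNT ligands with a row (left) and the secreted inhibitors (right) of each library. *WNT4* fills 40.0% and 70.4% of the ligand bars in WT cells, *WNT5A* 30.0% and 27.4% in edited cells, and *DKK1* 88.7% and 89.6% of the inhibitor bars in edited cells.

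*DKK3* (chromosome 11, 11963036 to 12009745) is a divergent member of the Dickkopf family whose part in WNT signalling is less settled than that of DKK1. Its value was 12.1 and 18.9 in edited and 103 and 98.0 in WT replicates 1 and 2, from about 275, 465, 2127 and 2219 reads. The WT libraries were 1.05-fold apart and the edited ones 1.56-fold. The mean was 6.49-fold lower in edited cells, with a log2 fold change of -2.65 (SE 0.25, 95% confidence interval -3.29 to -2.02, adjusted p = 0.0162 from limma). The call held without edited replicate 2 (adjusted p = 0.0228) and was lost without edited replicate 1 (0.0587), WT replicate 1 (0.125) or WT replicate 2 (0.188). Over all its alternatives the adjusted p ranged from 0.00865 to 0.188.

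*SFRP1* (chromosome 8, 41261962 to 41309473), whose protein binds WNT ligands outside the cell, moved the other way. Its value was 110 and 115 in edited and 35.3 and 42.2 in WT replicates 1 and 2, and about 1285 reads or more stood behind each. The replicates were 1.04-fold apart in edited and 1.20-fold in WT cells. The ratio of means was 2.91, and the log2 fold change was 1.52 (SE 0.18, 95% confidence interval 1.06 to 1.98, adjusted p = 0.0260 from limma). The log2 fold change stayed between 1.39 and 1.65 when 1 library was left out, but the call was lost each time (adjusted p = 0.0713 to 0.186). Over all its alternatives the adjusted p ranged from 0.0178 to 0.186.

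*DKK1* (chromosome 10, 52314281 to 52317657) reached the highest values of the set. It was 959 and 1155 in edited cells and 202 and 27.7 in WT cells, replicates 1 and 2 in turn, from about 15596, 20334, 2971 and 449 reads. Both edited libraries were above both WT libraries, but the WT libraries differed 7.27-fold from each other. *DKK1* stood at percentile 98.6 and 98.8 of all genes in the edited libraries, 93.6 in WT replicate 1 and 64.5 in WT replicate 2. The ratio of means was 9.22, 38.1 without WT replicate 1 and 5.24 without WT replicate 2. The log2 fold change of 3.79 (SE 0.89, 95% confidence interval 1.53 to 6.04) was the largest of the 7 genes and did not pass the threshold (adjusted p = 0.0719 from limma, 0.0588 to 0.227 over its alternatives).

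**Figure D3:**
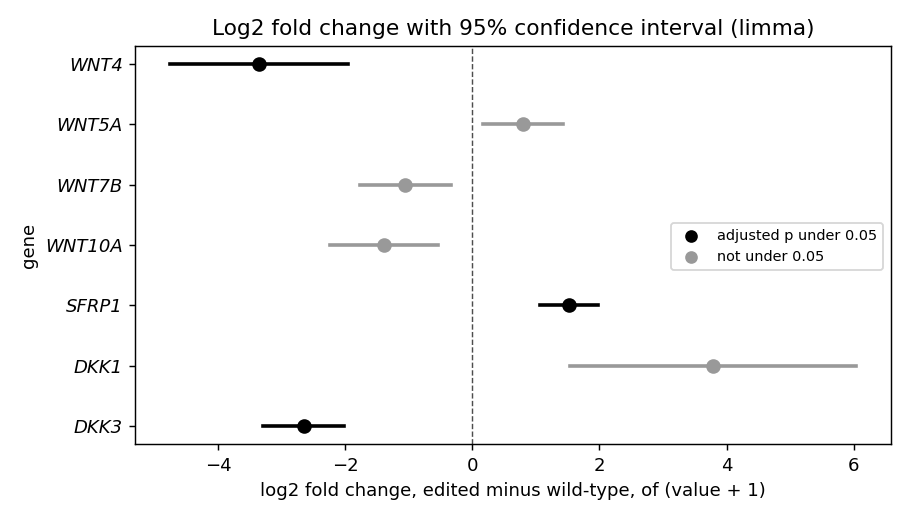
Log2 fold change of (value + 1), edited minus WT, with the 95% confidence interval from limma, black for an adjusted p under 0.05 and grey otherwise. *WNT4* (-3.36) and *DKK3* (-2.65) lie left of 0 and *SFRP1* (1.52) right of it, while *DKK1* (3.79) has the widest interval.

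The 3 inhibitors summed to 1082 and 1289 in edited cells and to 340 and 168 in WT cells. *DKK1* made up 88.7% and 89.6% of it in the edited libraries, 59.3% in WT replicate 1 and 16.5% in WT replicate 2. *DKK3* made up 30.3% and 58.3% in WT cells but 1.12% and 1.47% in edited cells. *DKK1* was thus the leading inhibitor in 3 libraries, and *DKK3* in WT replicate 2.

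The libraries also differed in cell type markers. Of 7 basal mammary markers all had a row, and they summed to 4726 and 7277 in edited cells and to 12390 and 20938 in WT cells. Of these, *TP63*, which maintains basal epithelium, fell (log2 fold change -2.65, limma adjusted p = 0.0396), and the other 6 were not called. In the list of 6 luminal and pan-epithelial markers *CDH1* fell (-5.28, adjusted p = 0.00757) and *KRT8* rose (1.01, adjusted p = 0.0450). This list summed to 676 and 675 in edited cells and to 689 and 421 in WT cells. Most of each sum was *KRT8* and *KRT18*, so it says little of the other markers. *EPCAM* (-2.31), *KRT19* (-2.11), *KRT18* (0.89) and *GATA3* (0.49) were not called. Of 9 fibroblast and mesenchymal markers 3 had a row, and these summed to 843 and 1325 in edited cells and to 280 and 223 in WT cells. Most of each sum was *VIM*, at 824 and 1215 in edited and 257 and 194 in WT cells. *VIM* rose (2.16, adjusted p = 0.0295), *COL1A1* fell (-2.06, adjusted p = 0.0490) and *DCN* was not called. Over all genes, 4.73% were called. When 1 library was dropped, the calls of *KRT8*, *VIM* and *COL1A1* were lost each time (adjusted p = 0.0659 to 0.238), that of *TP63* in 3 of 4 cases and that of *CDH1* in 2 of 4. None of 4 endothelial and 1 of 4 leukocyte markers (*CD68*, not called) had a row. The part of these differences in the values of the WNT genes was not tested. Fewer cells of a type and less RNA per cell cannot be told apart in such libraries. The WT replicates, apart for *WNT4* and *DKK1*, were also apart for *KRT14*, at 585 and 1880, and for *KRT18*, at 275 and 82.2.

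Other genes of the pathway, taken from lists grouped by role, were read from the same fit. Of 87 such genes 53 had a row, and at an adjusted p under 0.05 none was higher and 2 were lower in limma, *KREMEN2* and *VANGL2*, while 16 had an unadjusted p under 0.05. As shares, 3.77% were called and 30.2% had an unadjusted p under 0.05, near the 4.73% and 29.2% of all genes. Their median log2 fold change was -0.15. Among the 3 ligands outside the set that had a row, *WNT9A* was 0.829 and 1.92 in edited and 3.28 and 3.66 in WT cells, without passing the threshold (adjusted p = 0.124 from limma). *WNT10B* (log2 fold change -0.08) and *WNT11* (-0.12) were near 0 on this scale. Of all 7 ligands with a row, those of the set included, 1 was called and 5 had an unadjusted p under 0.05.

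**Figure D4:**
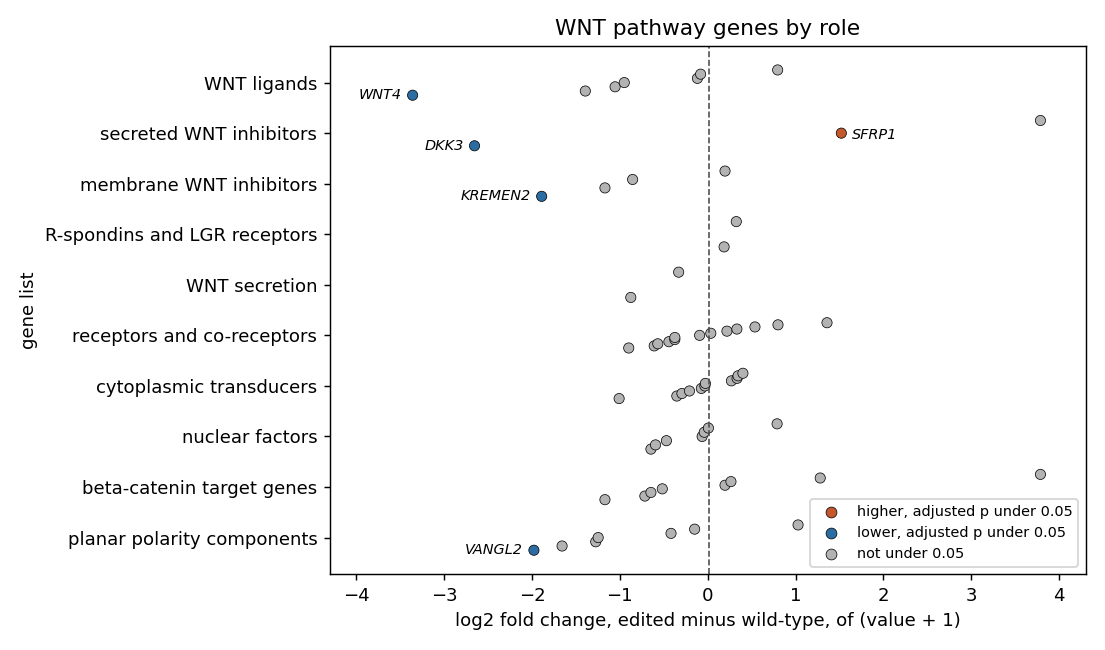
Log2 fold change of (value + 1), edited minus WT, of each WNT pathway gene with a row, by role, with called genes coloured and named. The dashed line is the median of all genes (0.01). *WNT4*, *DKK3*, *KREMEN2* and *VANGL2* are called lower and *SFRP1* higher, and genes of 2 roles are drawn in both rows.

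*KREMEN2*, a cell-surface receptor for Dickkopf proteins that acts with DKK1 on LRP6, was 3.65 and 2.40 in edited and 13.2 and 14.3 in WT replicates 1 and 2. It fell by 1.89 on the log2 scale (SE 0.25, limma adjusted p = 0.0307). The call was lost whichever library was left out (adjusted p = 0.0751 to 0.223) and with the replicate block (0.0688). Of the 7 secreted and membrane inhibitor genes with a row, 3 were called, against 4.73% of all genes. *KREMEN2* and *DKK3* were lower and *SFRP1* higher, and *DKK3* and *SFRP1* were already counted in the set. *RNF43* and *ZNRF3*, ubiquitin ligases that remove Frizzled from the surface, had log2 fold changes of -1.17 (adjusted p = 0.0639) and 0.20 (adjusted p = 0.619). Of the 4 membrane inhibitors with a row, 3 had an unadjusted p under 0.05 in limma, against 29.2% of all genes.

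At the receptors, 0 of 13 genes were called with limma, against 4.73% of all genes, and 3 had an unadjusted p under 0.05, against 29.2%. *FZD6* had the highest value of the 8 Frizzled genes with a row, at 46.9 and 61.7 in edited and 75.5 and 85.4 in WT cells (log2 fold change -0.57, adjusted p = 0.150). *LRP6*, the co-receptor that DKK1 binds, was 12.4 and 13.4 in edited and 9.49 and 10.6 in WT cells (log2 fold change 0.33, adjusted p = 0.314). *LRP5* had a log2 fold change of 0.22 (adjusted p = 0.541). *WLS*, which carries WNT proteins to the cell surface, was 56.4 and 60.4 in edited and 93.5 and 124 in WT cells (log2 fold change -0.88, adjusted p = 0.0729). It and *PORCN*, the other gene of WNT secretion, were not called, nor were *LGR4* (log2 fold change 0.19) and *RSPO4* (0.33), the 2 genes with a row among the R-spondins and LGR receptors.

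Inside the cell, 0 of 11 cytoplasmic transducers and 0 of 7 nuclear factors were called with limma. In each list 1 gene had an unadjusted p under 0.05, or 9.09% and 14.3%, against 29.2% of all genes. With lists this short, counts of 0 do not set them apart from the 4.73% of all genes that were called. *CTNNB1*, which encodes β-catenin, was 175 and 205 in edited and 198 and 187 in WT cells, and its log2 fold change was -0.03 (95% confidence interval -0.48 to 0.43). Of 15 target genes of β-catenin 8 had a row and 0 were called. An unadjusted p under 0.05 in limma was found for 3 of the 8, *DKK1* among them. This is 37.5%, against 29.2% of all genes, in a list too short to set it apart. The 7 other than *DKK1* went both ways. *NKD1* (log2 fold change -0.72), *TCF7* (-0.65), *RNF43* (-1.17) and *TNFRSF19* (-0.52) had lower means in edited cells, and *CCND1* (1.28), *MYC* (0.26) and *ZNRF3* (0.20) had higher ones. Of the 7, *RNF43* and *CCND1* (adjusted p = 0.0711) had the lowest adjusted p.

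Of 7 genes of planar cell polarity, the branch that orients cells without β-catenin, *VANGL2* fell. Its value was 4.72 and 6.45 in edited and 20.5 and 29.8 in WT replicates 1 and 2 (log2 fold change -1.98, SE 0.27, adjusted p = 0.0331 from limma). The call was lost whichever library was left out (adjusted p = 0.0655 to 0.222) and with the replicate block (0.0567). The other 6 were not called, and their log2 fold changes ran from -1.66 for *CELSR2* to 1.03 for *PRICKLE1*. The 1 call was 14.3% of the list, against 4.73% of all genes. Of the 7 genes, 5 had an unadjusted p under 0.05 in limma, against 29.2% of all genes. The median log2 fold change of the 7 was -1.25, and the list as a whole was not tested.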

How the data were processed

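RNA-seq libraries were made by the submitters from TRIzol-extracted RNA with a poly(A)-based TruSeq kit, 2 per group, with group and replicate read from each sample title. The submitters' processing notes name HISAT2, Salmon and hg38, without versions or roles; the annotation and normalization are not given in the sources used here. The authors deposited a normalized signal, 1 number per gene and library. The values are not counts, so count tests were not used. All 16811 genes were fitted with limma 3.58.1 (R 4.3.3; lmFit, then eBayes with a variance trend). The fit used log2(value + 1), no filter and no replicate block, with Benjamini-Hochberg adjustment over all of them. The script was checked on simulated data. The methods give Student's test in GraphPad Prism for expression differences in general and no test for the RNA-seq in particular. limma was used because it shares the spread across genes. The study reported many up- and downregulated genes at its RNA-seq threshold, an adjusted p under 0.001. With limma on the deposited values 0 genes passed that threshold (4909 had an unadjusted p under 0.05). The difference between these outcomes was not examined. The 0.05 used here is the level in the paper's statistics section, and 0.001 was an alternative.

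The depth step was the period, between 0.08 and 0.16, that best fitted value times length in 788 genes with a single transcript. Read numbers were obtained by multiplying a value by the canonical transcript length (GENCODE version 44, GRCh37) and dividing by that step. Gene positions and promoters are those of RefSeq on GRCh38.p14. Of the 7 genes with values, 4 had a promoter sequence. Figures were drawn with matplotlib 3.10.9.

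The genes and lists were chosen with earlier results of these data known. Named were every gene of the set, up to 3 called genes per pathway list, *CTNNB1*, *WLS*, *LRP5*, *LRP6* and Frizzled genes. The other ligands, membrane inhibitors, β-catenin targets, *CELSR2*, *PRICKLE1* and the markers were named after their values were seen. Alternatives were the pseudocount (0.1, 5), a minimum mean (1, 10), scaling, the replicate block, the variance trend, the threshold and leaving out each library.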

Additional observations from a re-analysis of the deposited data

How the results depend on the processing

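Of the 80 values of single genes under the alternatives, 66 kept their direction and their side of the threshold, 14 kept the direction only and 0 reversed. All 14 were lost calls of *WNT4*, *SFRP1* or *DKK3*. For the 4 genes that were not called, keeping the side means only that they stayed uncalled. The 3 calls among the 7 genes became 0 at an adjusted p under 0.001 and 1 (*DKK3*) with the replicate block, and 0 to 1 with each library left out. The 2 calls among the other pathway genes became 0 at an adjusted p under 0.001 and with the replicate block, 1 with a mean value of at least 10 (29 genes tested), and 0 whichever library was left out. Leaving out a library leaves a lone sample that is assumed to vary like the other group. Over all genes this gave 52 and 248 calls without edited replicates 1 and 2 and 0 without either WT replicate, against 795. The block gave 125. With the block the adjusted p was 0.0688 for *WNT4* and 0.0572 for *SFRP1*. The shared replicate numbers are not shown to pair the libraries: over all genes the same-numbered deviations had r = -0.09, and -0.14 over the 9590 genes with a mean of at least 10. The crossed pairing, chosen after seeing the data, gave 3 and 2 calls. *WNT4*, *WNT5A*, *WNT7B* and *WNT10A* were not tested with a mean of at least 10, where *SFRP1* and *DKK3* were called. With equal library totals the median log2 fold change of all genes was -0.09 in place of 0.01, and the 7 genes kept their directions. Depth limits *WNT10A* and *WNT7B*, with about 0 to 17 reads in the edited libraries. It also limits the size of the *WNT4* ratio, since *WNT4* had about 19 and 18 reads there. Where no cause is given for a change, the cause was not tested.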
